A study of Mus musculus with 6 samples.

Results

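Selenoproteins and the enzymes that defend cells against peroxides were followed in whole pancreatic islets of mice with and without a Cre transgene directed at Ssbp3. The 39 genes described here were chosen by symbol among the 56980 gene IDs of the count table. They comprise 18 selenoprotein genes, 7 genes of selenium handling and 14 other antioxidant genes. The choice was made with results of the knockout and control comparison known. Fold changes, adjusted p-values and counts of these genes therefore describe the libraries and are no independent evidence that the group as such changed.

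The 3 knockout libraries came from 14-week-old mice of genotype SSBP3F/F; MIP-CreER, and the 3 control libraries from 14-week-old littermates of genotype SSBP3F/F. Both groups thus carry floxed Ssbp3, the gene of a nuclear partner of the LDB1 cofactor. MIP-CreER is an inducible Cre recombinase driven by the mouse insulin promoter, so recombination is directed at beta cells while the RNA is from all islet cells. No library with MIP-CreER and intact Ssbp3 was analysed here, and the labels used here say nothing of tamoxifen, so effects of the transgene, of any inducer and of Ssbp3 loss cannot be told apart. Some MIP-CreER lines carry a growth hormone minigene. Whether this line does is not given, but the growth hormone response genes Cish and Socs2 averaged 64.0 ± 12.6 and 81.4 ± 19.7 CPM in knockout islets, against 16.4 ± 1.18 and 26.8 ± 2.50 CPM in control islets (SD, n = 3 each). Their part in the results below was not tested.

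Selenoproteins carry selenocysteine, an amino acid that resembles cysteine with selenium in place of sulfur. It is inserted at a UGA codon, which elsewhere ends translation, when a hairpin in the 3′ untranslated region recruits the binding protein SECISBP2 and the elongation factor EEFSEC. Glutathione peroxidases and thioredoxin reductases of this family reduce peroxides and disulfides, and several smaller members sit in the membrane or lumen of the endoplasmic reticulum (ER). Beta cells are known for low levels of catalase and of glutathione peroxidase 1, while making large amounts of disulfide-bonded insulin.

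The 6 libraries held between 14907641 and 225428920 counts, with knockout 1 and control 1 the shallowest of their groups. Levels are CPM, counts scaled to library sizes corrected by TMM factors, and the floor of 3 counts was worth 0.0135 to 0.194 CPM. Reads are not independent molecules, so such floors cover counting error only. Among genes with counts, 62.3% (control 3) to 73.2% (knockout 1) of the values in a library were even numbers. The cause of this was not tested. Ssbp3 itself averaged 55.8 ± 3.12 CPM in knockout and 73.8 ± 7.76 CPM in control islets (SD, n = 3), with no overlap but without being called (edgeR adjusted p = 0.0581). Which exons are floxed is not known here, so whole-gene counts do not measure recombination. The 10 beta-cell markers summed to 141821 to 159582 CPM in knockout and 188920 to 243961 CPM in control libraries, and the 8 alpha-cell markers to 18850 to 23092 and 21144 to 32510 CPM. The 16 acinar markers summed to 15510 to 52122 CPM in knockout and 19874 to 38553 CPM in control libraries. Of the other lists, the 6 endothelial markers summed to 243 to 298.9 CPM in knockout and 206.2 to 233.8 CPM in control libraries, the 6 duct markers to 968 to 1456 and 1728 to 2250 CPM, and the 6 delta and PP cell markers to 6457 to 8665 and 8677 to 14172 CPM. The 6 stromal markers summed to 74.22 to 119 and 82.31 to 170.7 CPM, the 6 Schwann cell markers to 11.51 to 20.34 and 15.22 to 23.82 CPM, and the 7 tested immune markers to 73.58 to 143.9 and 72.03 to 109.1 CPM, in knockout and in control libraries. The sums did not overlap between the groups for beta, delta and PP, duct and endothelial markers. The beta sum is mostly Ins2, Ins1 and Iapp, none of which was called. In control libraries the duct sum is mostly Spp1, but in knockout 1 Krt7 stood above it, at 445 CPM beside 350 CPM of Spp1. Spp1 averaged 635 ± 251 CPM in knockout and 1344 ± 167 CPM in control islets and was not called (edgeR adjusted p = 0.0550). Of the other 5 duct markers, Krt19, Sox9, Muc1 and Krt7 overlapped, and Cftr was called higher, at 1.48 ± 0.463 CPM in knockout and 0.223 ± 0.12 CPM in control islets (log2 fold change 2.82, edgeR adjusted p = 0.0169). The median log2 fold change of the 6 was 0.17. In such bulk samples fewer cells of a type and less RNA per cell cannot be told apart.

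The position of the selenocysteine codon separates these genes into kinds. The annotation marks a selenocysteine codon in 24 mouse genes, and all 24 were looked at here, 18 as members and 6 beside them. Selenop has 10 such codons, Dio2 has 2 and the other 22 genes have 1 each. The end of the Selenop coding sequence (chromosome 15, transcript Selenop-201) is shown from codon 348 to the stop at codon 381, because it holds 5 of the 10 selenocysteine codons, written in capitals.
Selenop: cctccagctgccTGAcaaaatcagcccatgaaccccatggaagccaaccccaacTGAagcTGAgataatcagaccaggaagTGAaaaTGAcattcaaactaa

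The other selenoprotein genes that were called, with Txnrd1 and Gpx3 for comparison, are shown around their selenocysteine codon, again in capitals, read 5′ to 3′ from the GENCODE M21 transcripts. In Selenok and Selenos the codon lies 2 codons and 1 codon before the end of the protein, and in Txnrd1 1 codon before it, so that the true stop codon is part of the stretch. In Dio1, Selenof, Gpx3 and Gpx2 it lies inside the protein, followed by 131, 69, 153 and 150 further codons.
Selenok: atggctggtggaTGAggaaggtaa
Selenos: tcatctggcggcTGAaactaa
Txnrd1: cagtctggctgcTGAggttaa
Selenof: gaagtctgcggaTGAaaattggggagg
Dio1: ggcagttgcaccTGAccttcatttctt
Gpx3: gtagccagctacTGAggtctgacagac
Gpx2: gtggcgtcactcTGAggaacaactacc

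All 39 members passed the filter on low counts, and 8 of them were called in the fit over all 18558 genes tested (edgeR quasi-likelihood test, Benjamini-Hochberg adjusted p under 0.05). Of these, 4 were higher and 4 lower in knockout islets, while 7.07% of all genes tested were called, 3.72% higher and 3.35% lower. The selenoproteins Selenop and Dio1 rose, as did the reductases Nqo1 and Gsr. The selenoproteins Selenok, Selenos and Selenof fell, as did the peroxiredoxin Prdx5. None of the 7 selenium-handling genes was called in this fit. Of them, 4 had an unadjusted edgeR p under 0.05, beside 4014 of all 18558 genes tested. Among the alternatives, Pstk was called with DESeq2, and Lrp8 with length and GC offsets and without knockout 3. The median log2 fold change was -0.015 over the 39 members and -0.002 over all genes tested. Without control 1, control 2, knockout 1 or knockout 2 the members called numbered 4, 5, 4 and 5, and without the shallowest library of each group 1, Selenop.

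**Figure D1:**
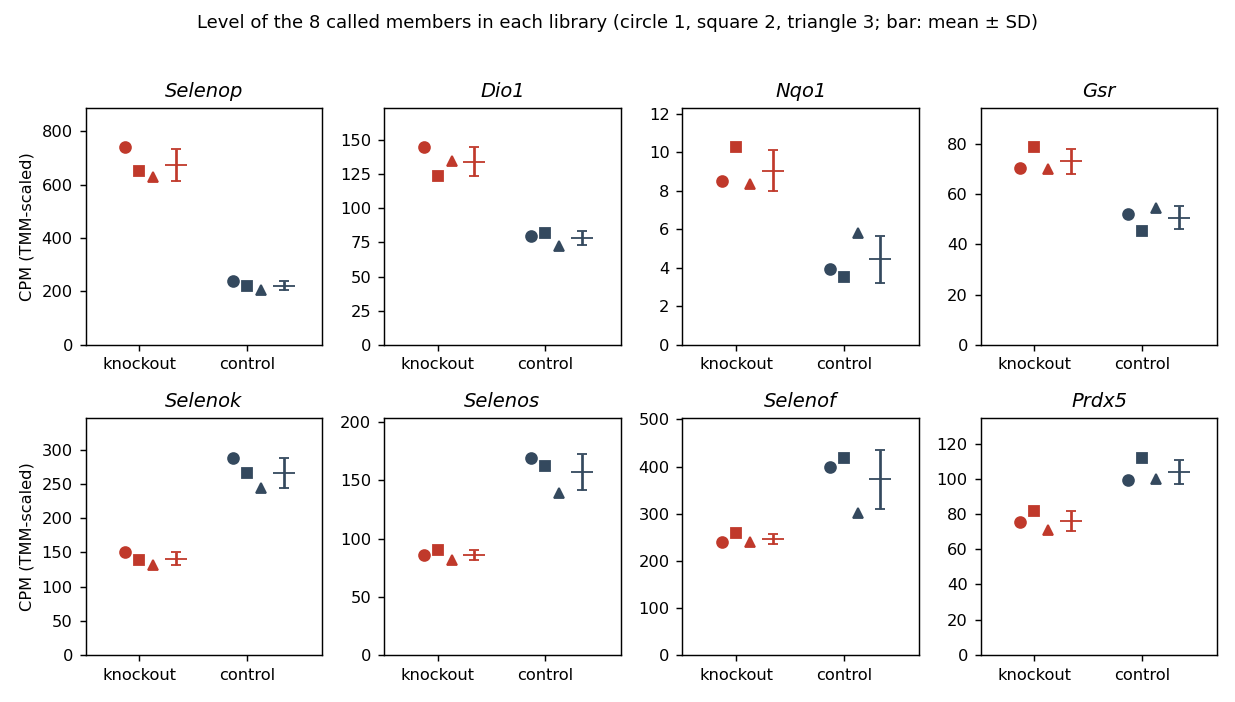
Level of each called member in CPM (vertical axes from 0) in the 3 knockout libraries, left, and the 3 control libraries, right; bars give mean ± SD. Selenop, Dio1, Nqo1 and Gsr lay higher in every knockout library, and Selenok, Selenos, Selenof and Prdx5 lower in every knockout library, than in any control library.

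Selenop, the plasma selenium carrier that is secreted and taken up by other cells, had the largest fold change among the members. Selenop (ENSMUSG00000064373) measured 740.3, 652 and 629 CPM in knockout 1, 2 and 3, against 237, 221 and 206 CPM in control 1, 2 and 3. Every knockout library thus lay far above every control library, and the libraries within a group were close to each other. The group means were 674 ± 58.9 CPM in knockout and 222 ± 15.6 CPM in control islets (SD, n = 3), a 3.04-fold rise (log2 fold change 1.60, SE 0.128, edgeR adjusted p = 2.34e-05). Selenop was the only member that stayed called in every alternative run, with log2 fold changes of 1.54 to 1.68 and adjusted p of 6.81e-32 to 0.0178 over 16 alternatives. Its exons overlap those of Ccdc152 over 15.4% of their length, and the strand setting of the counting is not given. Ccdc152 itself was near the floor, at 0.203 ± 0.0557 CPM in knockout and 0.173 ± 0.0908 CPM in control islets. Macrophages and endothelial cells also express Selenop. The immune marker sums overlapped between the groups, as did each of the 7 immune markers tested. The endothelial sums did not overlap, and 1 of 6 endothelial markers, Cdh5, was called higher (log2 fold change 0.51, edgeR adjusted p = 0.0481). The part of these cells in the level of Selenop was not tested.

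Dio1, the type 1 deiodinase, removes iodine from thyroid hormones to make and clear their active form. Dio1 measured 145, 124 and 135 CPM in the knockout libraries, against 79.9, 82.3 and 72.7 CPM in the control libraries. The groups were well apart, and the 1.72-fold rise (log2 fold change 0.78, SE 0.112, edgeR adjusted p = 0.00167) kept its call whichever library was left out. It was not called without the shallowest library of each group (log2 fold change 0.74, adjusted p = 0.0832). The other deiodinases were barely present. Dio2 had at most 3.30 CPM in any library and was at 0 in knockout 1, and Dio3 did not pass the filter on low counts.

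Among the members grouped here as selenoproteins of the ER, 3 fell and 3 were not called, beside 3.35% of all genes tested that were called lower. The group was formed after these values were seen, so its count is a description only. It leaves out Selenoi, an enzyme of phosphatidylethanolamine synthesis, which had a log2 fold change of 0.24 without a call. Selenok, a small membrane protein with roles in calcium flux and protein palmitoylation, measured 151, 139.7 and 132 CPM in knockout, against 289, 266 and 245 CPM in control libraries. Selenos, which links the ER membrane to the VCP machinery that extracts misfolded proteins, measured 86.2, 89.8 and 81.3 CPM in knockout, against 169.6, 163 and 139.6 CPM in control libraries. For both genes the highest knockout library lay far below the lowest control library. The log2 fold changes were -0.92 (SE 0.117) for Selenok and -0.87 (SE 0.115) for Selenos, 1.89-fold and 1.83-fold lower in knockout islets, with edgeR adjusted p of 0.000659 and 0.000941. Both calls held whichever library was left out and ended without the shallowest library of each group (adjusted p 0.0542 and 0.0766), where the log2 fold changes were -0.91 and -0.82. The beta-cell marker sums were also lower in every knockout library. These sums are mostly Ins2, Ins1 and Iapp, which lay lower in every knockout library but were not called (edgeR adjusted p = 0.235, 0.109 and 0.469). Of the 10 markers, 3 were called lower, Mafa, Ucn3 and G6pc2, while Nkx6-1, Slc2a2 and Slc30a8 overlapped between the groups. The part of beta cells in the levels of these ER genes was not tested.

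Selenof, a thioredoxin-like protein of the ER lumen that binds the glycoprotein folding sensor UGGT, measured 239, 258 and 239 CPM in knockout, against 399, 419 and 301 CPM in control libraries. The groups did not overlap, but the control libraries were spread widely (log2 fold change -0.60, SE 0.138, edgeR adjusted p = 0.0211). Leaving out control 1, control 2 or knockout 1 ended the call, with adjusted p 0.0876, 0.103 and 0.0932, as did leaving out the shallowest library of each group (0.235). Selenot, a further ER thioredoxin-like protein, measured 194, 217 and 299 CPM in knockout and 333, 248 and 291 CPM in control libraries, with overlap (log2 fold change -0.29, SE 0.166, edgeR adjusted p = 0.336). Selenom, of the ER lumen, averaged 110.2 CPM in knockout and 132 CPM in control islets (log2 fold change -0.26, SE 0.128). Selenon, an ER membrane protein important in muscle, averaged 38.8 CPM in knockout and 35.7 CPM in control islets (log2 fold change 0.12, SE 0.136). Neither was called. A member that misses the threshold is not shown to be equal between the groups.

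The glutathione peroxidases differed among themselves. Gpx3, the secreted plasma form, was the most abundant member per kilobase of exon and measured 1044, 789 and 684 CPM in knockout, against 521, 715 and 479 CPM in control libraries. Knockout 3 lay below control 2, so the groups overlapped, and Gpx3 was not called (log2 fold change 0.55, SE 0.187, edgeR adjusted p = 0.0975). It was called without control 2 or knockout 3 (adjusted p 0.0475 and 0.0426) and had a log2 fold change of only 0.31 without the shallowest library of each group (adjusted p = 0.540). Gpx4, which reduces lipid hydroperoxides in membranes, measured 285, 263 and 214 CPM in knockout, against 217, 278 and 237 CPM in control libraries, and its log2 fold change of 0.06 (SE 0.140) was within its error. A Gpx4 pseudogene held 25662 counts beside 126719 counts of Gpx4, so the level of Gpx4 is uncertain. Gpx1, the cytosolic form, was low throughout, at 2.85, 3.17 and 2.30 CPM in knockout, against 4.40, 4.59 and 3.64 CPM in control libraries. It lay lower in every knockout library but was not called (log2 fold change -0.60, SE 0.272, edgeR adjusted p = 0.220). Gpx1, Selenow and Selenoh are known in other tissues for mRNAs that fall first when selenium is short. Selenow averaged 52.6 CPM in knockout and 53.7 CPM in control islets (log2 fold change -0.03, SE 0.128), and Selenoh 11.3 and 10.2 CPM (0.14, SE 0.199), without a call. The part of selenium supply in these levels was not tested.

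Of the 6 selenoprotein genes outside the members, 4 could be tested, and 1 was called, beside 7.07% of all genes tested. Gpx2, the glutathione peroxidase first known from the gut, measured 48.5, 53.3 and 50.7 CPM in knockout, against 92.6, 94.2 and 80.0 CPM in control libraries. Every knockout library was far below every control library (log2 fold change -0.81, SE 0.113, edgeR adjusted p = 0.00140). The call held whichever library was left out, and ended without the shallowest library of each group (log2 fold change -0.74, adjusted p = 0.0854). The lower duct sum in knockout libraries rests on Spp1, and Cftr, of the same list, was called higher. The part of duct cells in the level of Gpx2 was not tested. Txnrd3, a thioredoxin reductase of testis, averaged 6.37 ± 1.16 CPM in knockout and 3.92 ± 0.317 CPM in control islets (SD, n = 3) without a call (log2 fold change 0.69, SE 0.235, edgeR adjusted p = 0.0995). For Selenoo, a mitochondrial protein, the log2 fold change was 0.05 (SE 0.234), and its exons overlap those of Tubgcp6 over 26.7% of their length. Selenov did not pass the filter on low counts.

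The thioredoxin reductases of the cytosol and of mitochondria feed electrons to thioredoxins. Txnrd1, the cytosolic enzyme, measured 221, 229 and 249 CPM in knockout, against 172, 178 and 189.7 CPM in control libraries. The groups did not overlap, yet the gene was not called (log2 fold change 0.37, SE 0.111, edgeR adjusted p = 0.0629). DESeq2, limma-voom and the fit with an acinar covariate did call it (adjusted p 0.0201, 0.0417 and 0.0269). Txnrd2, the mitochondrial enzyme, had 12.5 ± 2.68 CPM in knockout and 11.6 ± 2.58 CPM in control islets (SD, n = 3). Msrb1, which repairs oxidised methionine, averaged 22.1 CPM in knockout and 26.0 CPM in control islets (log2 fold change -0.25, SE 0.166). Selenoi, an enzyme of phosphatidylethanolamine synthesis, averaged 25.6 and 21.8 CPM in knockout and in control islets (log2 fold change 0.24, SE 0.151). Sephs2 makes the selenium donor, is itself a selenoprotein, and averaged 56.5 CPM in knockout and 50.9 CPM in control islets (log2 fold change 0.15, SE 0.12). None of the 3 was called. Sephs2 exons overlap those of Gm44729 over 36.4% of their length, so its counts are uncertain.

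**Figure D2:**
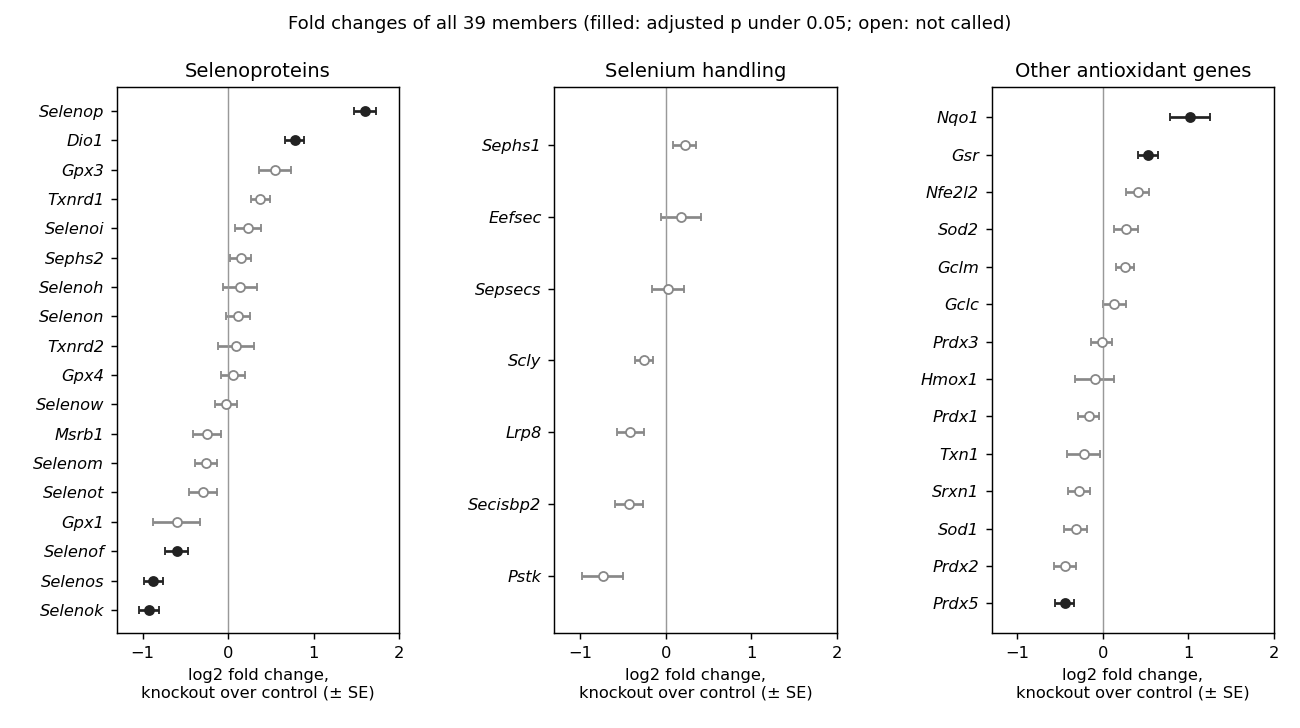
Log2 fold change, knockout over control, with its SE for all 39 members in 3 groups; filled points are called and open points are not. Selenoproteins ran from -0.92 for Selenok to 1.60 for Selenop, and no selenium-handling gene was called.

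By transcript abundance, Selenop held a larger share and the ER genes a smaller share of selenoprotein mRNA in every knockout library than in any control library. Levels per kilobase of exon (RPKM, from the TMM-scaled counts) were summed over the 22 selenoprotein genes tested. The sum without Selenop was 1343, 1163 and 1072 RPKM in knockout libraries, against 1163, 1308 and 1075 RPKM in control libraries, so the groups overlapped. Selenop made up 16.2%, 16.5% and 17.1% of the full sum in knockout libraries, against 6.7%, 5.62% and 6.32% in control libraries. The 6 ER genes Selenof, Selenok, Selenom, Selenon, Selenos and Selenot, grouped after their values were seen, made up 20.7%, 23.1% and 25.8% in knockout libraries, against 42%, 36.6% and 39.5% in control libraries. The knockout and control libraries overlapped in neither share. Weighted by the number of selenocysteine codons in each coding sequence, the sum was 3948, 3458 and 3284 in knockout libraries, against 1998, 2087 and 1800 in control libraries, which is 1.82 times as high in knockout islets. Selenop held 66%, 66.3% and 67.4% of these codons in knockout libraries, against 41.8%, 37.3% and 40.3% in control libraries. These sums describe mRNA and carry no test, since Selenop and the ER genes were among the members chosen with this contrast known. Translation at the UGA codons was not measured.

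**Figure D3:**
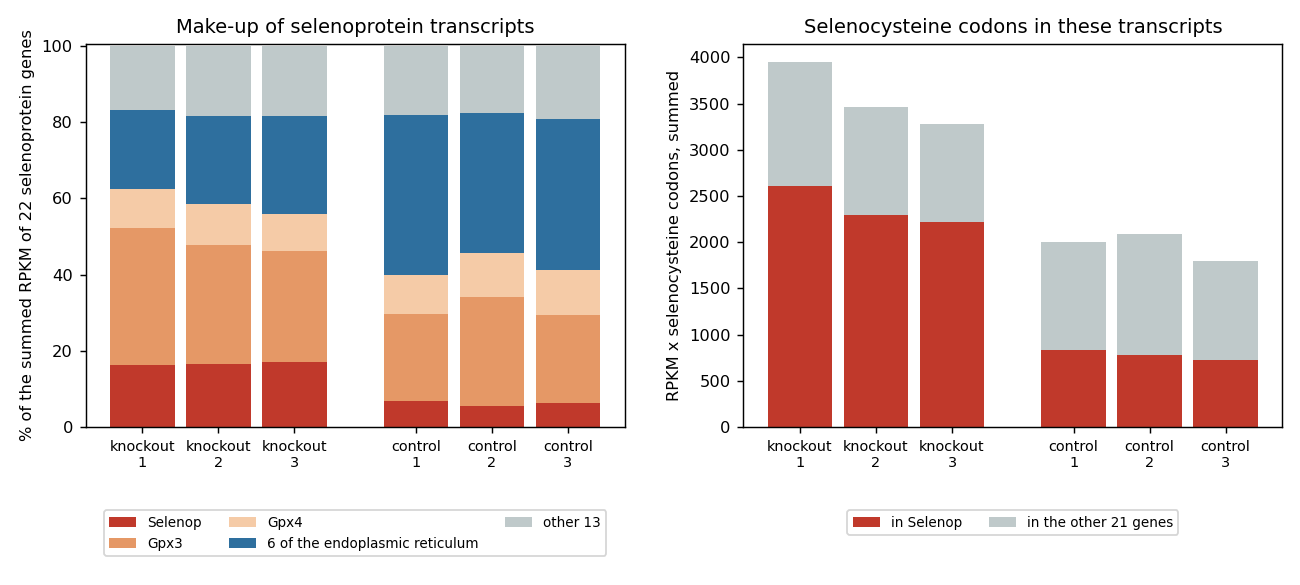
Left, share of each kind of selenoprotein transcript in the summed RPKM of 22 genes, per library, with knockout libraries left of control libraries. Right, summed RPKM times the number of selenocysteine codons, split into Selenop and the other 21 genes; the knockout libraries reach 3284 to 3948 and the control libraries 1800 to 2087.

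Of the 7 genes that deliver selenium and build selenocysteine, 4 were lower and 1 was higher in every knockout library than in any control library, beside 14.1% of all genes tested that were lower and 14% that were higher in this way. None of the 7 was called by edgeR. Scly, the lyase that frees selenium from selenocysteine, was the most abundant of the 7 and measured 124, 129 and 140.1 CPM in knockout, against 157, 154 and 158 CPM in control libraries (log2 fold change -0.25, SE 0.106, edgeR adjusted p = 0.187). Lrp8, a receptor that takes up selenoprotein P in brain and testis, measured 16.5, 18.9 and 24.1 CPM in knockout, against 28.2, 24.9 and 26.7 CPM in control libraries. Knockout 3 came close to control 2, and Lrp8 was not called (log2 fold change -0.41, SE 0.157, edgeR adjusted p = 0.141), but it was called without knockout 3 (adjusted p = 0.0362) and with length and GC offsets (0.0135). Sepsecs, which converts phosphoseryl-tRNA to selenocysteyl-tRNA, measured 29.4, 28.5 and 44.0 CPM in knockout and 39.01, 26.8 and 34.5 CPM in control libraries, with wide overlap (log2 fold change 0.03, SE 0.187, edgeR adjusted p = 0.945).

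Secisbp2, the protein that reads the selenocysteine insertion element, had 11.6 ± 1.21 CPM in knockout and 15.6 ± 1.67 CPM in control islets (log2 fold change -0.43, SE 0.164, edgeR adjusted p = 0.145, n = 3). Pstk, the kinase that acts before Sepsecs, had 3.94 ± 0.545 and 6.56 ± 1.15 CPM in knockout and in control islets (log2 fold change -0.74, SE 0.239, edgeR adjusted p = 0.0839). Its exons overlap those of Ikzf5 over 58.8% of their length, so its counts are uncertain. Eefsec averaged 14.7 CPM in knockout and 12.7 CPM in control islets (log2 fold change 0.18, SE 0.230), and its exons overlap those of Gm44264 over 11.0% of their length. Sephs1, a paralog of Sephs2 that is no selenoprotein, averaged 22.5 CPM in knockout and 19.2 CPM in control islets (log2 fold change 0.22, SE 0.133). Groups did not overlap for 5 of the 7 genes, and for 18 of the 39 members, beside 28% of all genes tested.

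Among the 14 other antioxidant genes, 2 rose and 1 fell, which is 21.4% called, beside 7.07% of all genes tested. Nqo1, a quinone reductase and a classic target of the oxidative stress factor NRF2, measured 8.47, 10.2 and 8.36 CPM in knockout, against 3.95, 3.51 and 5.82 CPM in control libraries. It was 2.02-fold higher in knockout islets from a low level (log2 fold change 1.02, SE 0.237, edgeR adjusted p = 0.0223). Leaving out control 1, control 2, knockout 1 or knockout 2 ended the call, at adjusted p 0.0828, 0.11, 0.0576 and 0.0762, as did leaving out the shallowest library of each group (0.172). Gsr, which regenerates reduced glutathione, measured 70.6, 78.8 and 70.0 CPM in knockout, against 52.0, 45.5 and 54.5 CPM in control libraries, with a clear gap (log2 fold change 0.53, SE 0.116, edgeR adjusted p = 0.0171). Leaving out any of the same 4 libraries ended its call (adjusted p 0.0580, 0.106, 0.0534 and 0.0686) and without the shallowest library of each group (0.150).

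Peroxiredoxins remove hydrogen peroxide through a reactive cysteine. Of the 4 among the members, Prdx5 fell and the other 3 were not called. Prdx4 and Prdx6, outside the members, were not called either (log2 fold changes -0.03 and -0.14). Prdx5 measured 75.7, 81.7 and 70.9 CPM in knockout, against 99.5, 112 and 100.1 CPM in control libraries (log2 fold change -0.45, SE 0.111, edgeR adjusted p = 0.0289). No knockout library reached the control range, but the call held only without control 3 among the settings that leave out 1 library. Without control 1, control 2, knockout 1, knockout 2 and knockout 3 the adjusted p was 0.0649, 0.164, 0.102, 0.0568 and 0.0695, and without the shallowest library of each group 0.183. Prdx5 exons overlap those of Trmt112 over 19.1% of their length. Prdx2 measured 122, 123 and 109 CPM in knockout, against 164, 181 and 134 CPM in control libraries, and was not called (log2 fold change -0.44, SE 0.129, edgeR adjusted p = 0.0591). It was called without control 3, the control closest to the knockout libraries (adjusted p = 0.0187). Prdx2 exons overlap those of Junb and Rnaseh2a over 11.5% of their length. Prdx1, the most abundant of the 14 in CPM, measured 244, 259.9 and 213 CPM in knockout and 282, 282 and 241 CPM in control libraries, with overlap (log2 fold change -0.17, SE 0.124, edgeR adjusted p = 0.486). Prdx3, of mitochondria, averaged 48.3 CPM in knockout and 48.7 CPM in control islets (log2 fold change -0.02, SE 0.126).

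Of the superoxide dismutases, cytosolic Sod1 measured 189.5, 180.4 and 155 CPM in knockout and 215, 253 and 187 CPM in control libraries (log2 fold change -0.32, SE 0.135, edgeR adjusted p = 0.191). Sod2, of mitochondria, averaged 101.4 CPM in knockout and 84.1 CPM in control islets (log2 fold change 0.27, SE 0.138). Nfe2l2, which encodes NRF2, was at 55.8, 59.2 and 50.2 CPM in knockout, against 34.7, 46.5 and 43.0 CPM in control libraries, without overlap and without a call (log2 fold change 0.41, SE 0.134, edgeR adjusted p = 0.0883). Gsr, described above, is also known to respond to NRF2 and was called higher. Among other members known to respond to it, Gclm, Gclc, Srxn1, Txn1, Hmox1, Txnrd1 and Prdx1 were not called by edgeR. Their log2 fold changes had both signs. Gclm and Txnrd1 lay higher in every knockout library than in any control library. The groups overlapped for Gclc, Srxn1, Txn1, Hmox1 and Prdx1. The part of NRF2 in these levels was not tested. Gclm, a glutathione synthesis subunit, averaged 132 CPM in knockout and 111 CPM in control islets (log2 fold change 0.25, SE 0.104), and its partner Gclc 42.1 and 38.4 CPM (0.13, SE 0.133). Sulfiredoxin Srxn1 averaged 118 CPM in knockout and 144 CPM in control islets (-0.28, SE 0.127), and thioredoxin Txn1 97.6 and 114 CPM (-0.23, SE 0.195). Heme oxygenase Hmox1 had a log2 fold change of -0.10 (SE 0.231). Hmox1 was at 71.8, 92.8 and 79.4 CPM in knockout and at 67.1, 70.1 and 124 CPM in control libraries, with control 3 apart from the rest.

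The motif TGACNNNGC, the core of the antioxidant response element that NRF2 binds, was searched on both strands in RefSeq promoters of build GRCm38.p6, from 250 bases before to 50 after a gene's start. It was present in 8 of the 45 promoters of the 35 members with an entry, 17.8%, beside 12.4% of all 32851 promoters. The ER stress response element, searched on both strands, was present in 0 of these 45 promoters and in 0.119% of all. The 8 sites are shown with the motif in capitals, on the strand of the gene, because they let the members with and without the motif be set beside their fold changes.
Selenok, chr14:29968326-29968354 (+): gttacttgtgTGACTGGGCggaacctcta
Txnrd1, chr10:82859104-82859132 (+): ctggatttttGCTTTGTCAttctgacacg
Lrp8, chr4:107802840-107802868 (+): cagtcttttcTGACAATGCgtttccgggg
Sod1, chr16:90220696-90220724 (+): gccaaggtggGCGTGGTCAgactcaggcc
Prdx1, chr4:116685456-116685484 (+): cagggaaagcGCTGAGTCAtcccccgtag
Gclm, chr3:122245413-122245441 (+): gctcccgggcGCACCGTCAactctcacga
Srxn1, chr2:152105542-152105570 (+): gcagtgggcaGCTAGGTCAgagtgagaca
Nfe2l2, chr2:75704885-75704913 (-): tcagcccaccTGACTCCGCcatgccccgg

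Of these 8 genes 1 was called by edgeR, Selenok, which was lower in knockout islets, beside 7.07% of all genes tested that were called. The sites are matches of letters and no evidence of binding. The motif was not found in the windows of Selenop, Dio1, Nqo1, Selenos, Selenof and Prdx5, which says only that these letters are not in these windows. Gsr had no entry, nor had the members Gclc, Hmox1 and Sepsecs, which were not called.

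Beside the members, 52 further redox genes were taken from a list of glutathione, thioredoxin, peroxide and NADPH genes and of NRF2 partners. All 52 passed the filter, and 6 were called by edgeR, 2 higher and 4 lower, with a median log2 fold change of -0.05. This is 11.5% called, beside 7.07% of all genes tested. Gstm1, a glutathione transferase, measured 197, 147 and 165 CPM in knockout, against 62.0, 67.7 and 78.8 CPM in control libraries. The 2.43-fold rise (log2 fold change 1.28, SE 0.138, edgeR adjusted p = 0.000225) stayed called in all 16 alternatives (adjusted p 1.64e-18 to 0.0397). Gstm1 has close paralogs, so its counts may include reads of these. Osgin1, an NRF2-responsive growth inhibitor, measured 42.7, 35.3 and 31.8 CPM in knockout, against 16.6, 22.3 and 24.8 CPM in control libraries (log2 fold change 0.77, SE 0.168, edgeR adjusted p = 0.0164). Leaving out control 1, control 2 or knockout 1 ended its call, with adjusted p 0.0659, 0.0506 and 0.0759.

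Those that fell were Park7, Ero1b, Txn2 and Txnl1. Park7, the redox sensor DJ-1, measured 122, 117 and 107 CPM in knockout, against 162, 173 and 161 CPM in control libraries (log2 fold change -0.52, SE 0.108, edgeR adjusted p = 0.0145). Its call ended when control 2 or knockout 2 was left out (0.0792 and 0.0531). Ero1b, the ER oxidase of endocrine pancreas that drives disulfide formation in proinsulin, measured 312, 316 and 493 CPM in knockout, against 669.9, 546 and 667 CPM in control libraries. Knockout 3 lay near the controls without reaching them (log2 fold change -0.75, SE 0.179, edgeR adjusted p = 0.0254), and the call was lost without control 1, control 3, knockout 1 or knockout 2 (0.107, 0.0587, 0.124 and 0.0923). Mitochondrial thioredoxin Txn2 measured 53.6, 63.7 and 56.8 CPM in knockout, against 70.5, 102 and 84.2 CPM in control libraries (log2 fold change -0.56, SE 0.141, edgeR adjusted p = 0.0304), and lost its call without control 2, knockout 1 or knockout 3 (0.180, 0.124 and 0.0517). Txnl1, a thioredoxin-like protein of the proteasome, measured 83.4, 95.8 and 90.3 CPM in knockout, against 131, 125 and 115 CPM in control libraries (log2 fold change -0.46, SE 0.11, edgeR adjusted p = 0.0254), and was no longer called when control 1, control 2, knockout 1 or knockout 2 was left out (0.0929, 0.11, 0.113 and 0.0562). Of the 7 called genes outside the members, Gpx2 included, only Gstm1 was called without the shallowest library of each group.

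**Figure D4:**
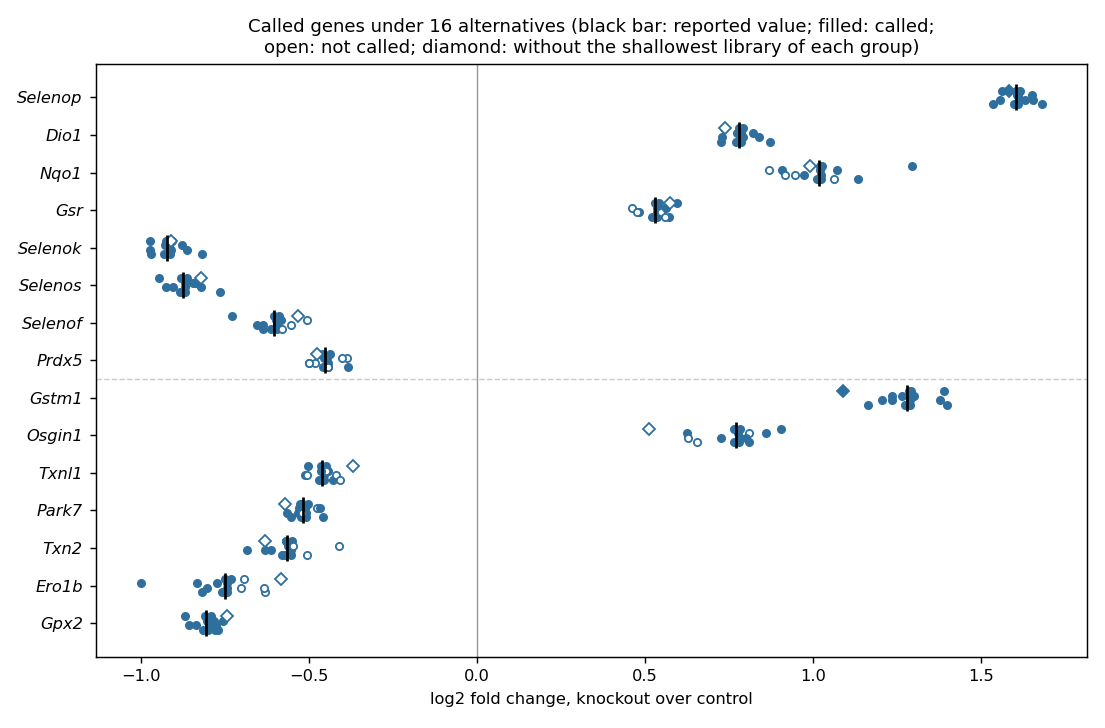
Log2 fold change, knockout over control, of the 8 called members (above the dashed line) and the 7 called genes outside them under 16 alternatives; filled symbols are called, open ones are not, and diamonds are the fit without the shallowest library of each group. No called gene changed sign, and the diamonds of Selenop and Gstm1 alone are filled.

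Per kilobase of exon, the members spanned a wide range of levels. In control islets the order began with Gpx3 at 315 RPKM, Gpx4 at 142, Selenok at 141, Txn1 at 109 and Selenos at 106 RPKM, and in knockout islets Gpx3 stood at 463 RPKM and Selenop at 237 RPKM. In control islets Selenop stood at 78.0 RPKM, rank 9 among the 39. The lowest levels were those of Pstk, at 0.498 RPKM in knockout and 0.829 RPKM in control islets. Gpx1 had 1.93 RPKM in knockout and 2.92 RPKM in control islets, and catalase (Cat), outside the members, 4.81 and 4.23 RPKM. Exon lengths came from another genome build by gene ID, so the order of close neighbours is uncertain.

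**Figure D5:**
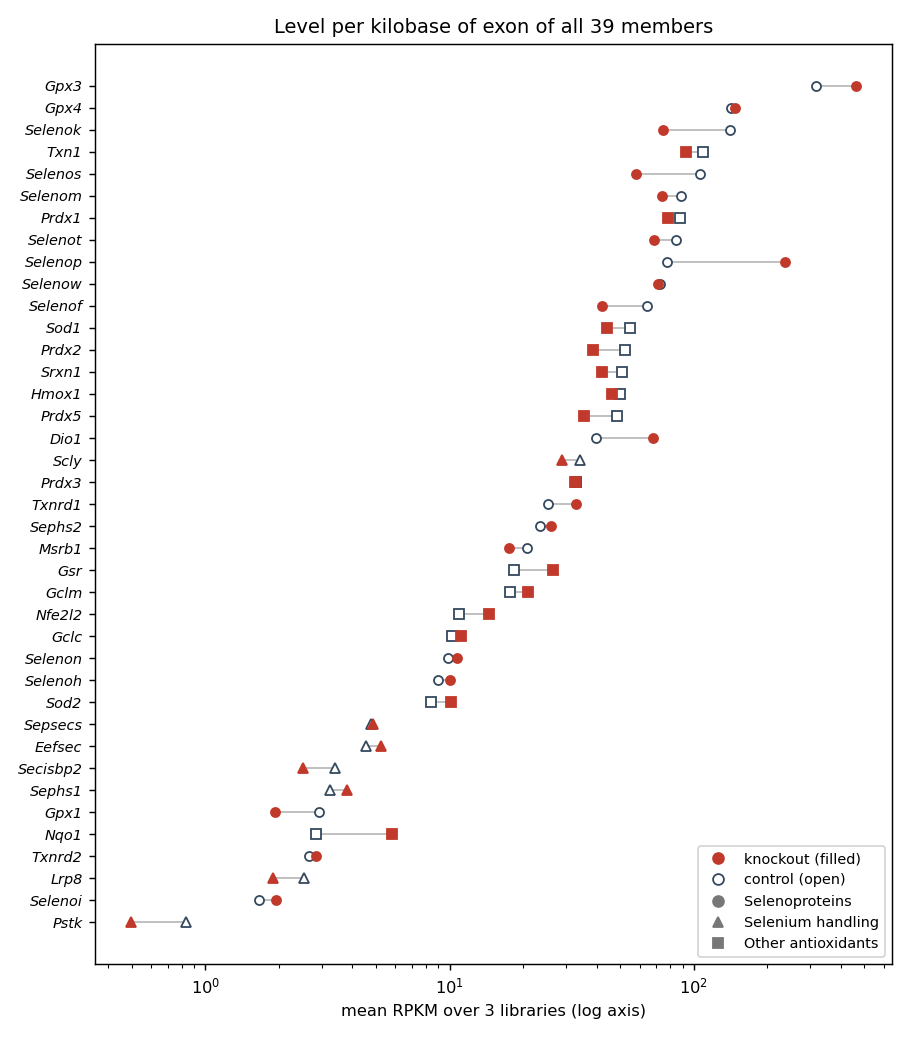
Mean RPKM over 3 libraries (log axis) of all 39 members, ordered by the level in control islets, with knockout means filled and control means open. Gpx3 is the highest member in both groups, at 463 RPKM in knockout and 315 RPKM in control islets, and Selenop has the widest gap among abundant members.

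Fold changes over all genes were higher for longer exons (Spearman's rho 0.212 across genes, which are not independent replicates). With offsets for length and GC content all 8 called members kept their call, and their log2 fold changes were 1.68 for Selenop, 0.87 for Dio1, 1.13 for Nqo1, 0.57 for Gsr, -0.82 for Selenok, -0.76 for Selenos, -0.64 for Selenof and -0.38 for Prdx5.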

How the data were processed

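RNA was measured by bulk RNA-seq of whole islets in 3 knockout and 3 control libraries. The deposited table holds raw read counts per gene. Per the submitters' processing notes, the authors aligned reads with STAR 2.7.3a to GRCm39 (mm39) and counted with featureCounts, with Trim Galore 0.6.7 and FastQC 0.11.9 also named. Annotation release, strandedness and the treatment of multimapping reads are not stated there. Column names give the group but not which sample, so libraries are called knockout 1 to 3 and control 1 to 3 after the columns. Whether each is 1 animal is not given, so p-values measure only the spread between these libraries, which may be technical.

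Library totals were 14907641, 83647474 and 93841878 counts in knockout 1 to 3, and 17587055, 89044012 and 225428920 counts in control 1 to 3. Genes were kept by filterByExpr, scaled by TMM and tested with edgeR 4.0.16 (robust quasi-likelihood test, Benjamini-Hochberg adjustment over 18558 genes, called at an adjusted p under 0.05). SEs were derived from the fold change and the F statistic. RPKM values used exon-union lengths from GENCODE M21 (GRCm38), matched by gene ID, which is another build than that of the counts. Selenocysteine codons were read from the same transcripts, and promoters from RefSeq (GRCm38.p6).

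Alternatives used DESeq2 1.42.0 and limma 3.58.1 (voom), other scalings and filters, an acinar covariate, length and GC offsets, and left-out libraries. On data simulated for this comparison, the share of altered genes that edgeR called was 13.9% (of 72) at 1.5-fold, 42.6% (of 68) at 2-fold and 67.3% (of 55) at 4-fold. The simulation altered 200 genes, fewer than the 1312 called in the data, so these shares need not hold for the real libraries. Members and lists were chosen with earlier results of these data known. The text names every member with its level, in full those called and the 3 of highest mean CPM in each of the 3 groups, and outside them the called genes of smallest p, at most 8. Other outside selenoproteins were added after their values were seen. Cat was named for its known low level in beta cells, and Prdx4 and Prdx6 to complete the peroxiredoxins.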

Additional observations from a re-analysis of the deposited data

How the results depend on the processing

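No paired analysis was possible because the columns carry no number that ties a knockout library to a control library. Among 16 alternatives no called gene changed sign. Of the members not called, Gpx4, Txnrd2, Selenoh, Selenon, Selenow, Sepsecs, Eefsec, Prdx3 and Hmox1 had log2 fold changes of both signs, all between -0.25 and 0.33. The count of all genes called was 1312 and moved to 2153 with no filter on low counts, 2094 with DESeq2 and 2031 with an acinar covariate; it ranged from 519 to 1309 with 1 library left out and was 124 without the shallowest library of each group. Members called numbered 8, from 4 to 9 with 1 library left out and 1 without the shallowest libraries. Selenoproteins outside the members called numbered 1, but 2 with no filter and with DESeq2, 1 to 1 with 1 library left out, and 0 without the shallowest libraries. Other redox genes called numbered 6, but 11 with no filter, 10 with DESeq2, 11 with the acinar covariate, 2 to 8 with 1 library left out and 1 without the shallowest libraries. Upper-quartile factors turned the split of all calls to 613 higher and 829 lower (42.5% higher), against 691 and 621 (52.7% higher), and moved the median log2 fold change of all genes to -0.05. The causes were not tested, but leaving out libraries leaves fewer samples. Of the 31 members not called, 6 were called in some alternative (Gpx3, Txnrd1, Pstk, Lrp8, Prdx2 and Nfe2l2).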
